A study of Mus musculus with 18 samples.

Results

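The annexin family was described in the neutrophil lineage of the mouse, over the 8 members Anxa1, Anxa2, Anxa3, Anxa4, Anxa5, Anxa6, Anxa7 and Anxa11. They were chosen by gene symbol from the 34896 genes of the expression table, and all 8 passed the filter of at least 1 TPM in at least 3 libraries, which left 13061 genes. TPM, a measure of transcript share, scales the reads of a gene by its length and by its library, so that levels of different genes can be compared.

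RNA-seq covered granulo-monocytic progenitors (GMPs), preneutrophils (preNeu) and mature neutrophils (matNeu), with 3 libraries for each cell type. These cells were sorted from the bone marrow of wild type (WT) C57BL/6 mice of 6 to 12 weeks of age, and the labels do not say whether libraries of one cell type came from separate animals, so that the p-values measure the spread between these libraries. CHD4 ChIP-seq had 1 library of WT GMPs and 1 of Gfi1-/- GMPs of the same strain and age, and H3K4me2 ChIP-seq had 1 library each of WT GMPs, preNeu and matNeu cells. CHD4 is the ATP-dependent remodeler of NuRD, a chromatin complex that moves nucleosomes and removes histone acetylation, GFI1 is a DNA-binding repressor that neutrophil differentiation needs, and H3K4me2 marks active and poised promoters and enhancers. Expression in Gfi1-/- cells was not analysed here, so that this genotype had no check on the targeted gene.

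Annexins bind acidic phospholipids of membranes in the presence of calcium, through a core of repeated domains, and members differ in the N-terminal tail that binds partner proteins. In neutrophils, annexin A1 is a stored and secreted protein that acts on formyl peptide receptors and limits inflammation, and annexin A2 joins membranes to actin and pairs with the small EF-hand protein S100A10. Annexin A5 is the reagent used to detect phosphatidylserine on dying cells, and annexins A4, A6, A7 and A11 take part in membrane organization, repair, fusion and trafficking.

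Before the expression results, sequences under some of the CHD4 peaks are shown, since CHD4 is the factor compared between genotypes. Each is from the plus strand of GRCm38, within the 200 bases around a CHD4 summit of WT GMPs, without any base that the annotation gives as UTR. Capitals mark matches to 5 short sequence cores on either strand, AAATCA for GFI1, GAGGAAGT for SPI1, TTGCNNAA for C/EBP factors, TGTGGT for RUNX factors, and the IRF core, which repeats GAAA after a gap. The first 3 lie in peaks that overlapped a CHD4 peak of Gfi1-/- GMPs, and the last 2 lie in peaks that did not. All of those shown hold a core, and windows without any, such as that of the peak over the Anxa3 start, are left out.
Anxa1 main peak, chr19:20390499-20390611: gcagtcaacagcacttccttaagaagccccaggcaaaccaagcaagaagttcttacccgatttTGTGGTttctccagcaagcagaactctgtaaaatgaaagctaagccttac
Anxa3 upstream, chr5:96792439-96792638: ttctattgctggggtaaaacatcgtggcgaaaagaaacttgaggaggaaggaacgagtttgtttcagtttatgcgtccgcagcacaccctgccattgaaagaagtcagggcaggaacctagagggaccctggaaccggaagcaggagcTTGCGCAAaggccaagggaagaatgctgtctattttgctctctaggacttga
Anxa3 first intron, chr5:96794342-96794541: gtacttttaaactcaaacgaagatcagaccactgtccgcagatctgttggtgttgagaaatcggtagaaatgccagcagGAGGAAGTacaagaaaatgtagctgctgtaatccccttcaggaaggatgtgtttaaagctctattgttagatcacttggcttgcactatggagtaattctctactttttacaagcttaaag
Anxa1 upstream, chr19:20391141-20391340: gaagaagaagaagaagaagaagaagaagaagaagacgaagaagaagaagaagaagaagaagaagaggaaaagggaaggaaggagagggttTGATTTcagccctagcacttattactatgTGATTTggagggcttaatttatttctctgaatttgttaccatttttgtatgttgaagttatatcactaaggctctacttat
Anxa6 intron, chr11:55008300-55008499: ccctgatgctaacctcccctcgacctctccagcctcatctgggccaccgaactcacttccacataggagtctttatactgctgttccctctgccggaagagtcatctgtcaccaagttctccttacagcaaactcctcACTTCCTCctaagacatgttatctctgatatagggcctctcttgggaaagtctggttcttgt

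Samples were grouped by their titles, and for 13 of the 18 samples, all 9 RNA-seq libraries and the H3K4me2 libraries of preNeu and matNeu cells included, the labels give another cell type in a second place. In the RNA-seq libraries, marker genes followed the titles. The titles of the H3K4me2 libraries had no such check. The summed TPM of 6 GMP markers was 45300 to 47200 in GMPs, 8320 to 9360 in preNeu cells and 9.32 to 32.7 in matNeu cells, that of 6 preNeu markers was 95.4 to 113, 146000 to 171000 and 4560 to 6850, and that of 6 matNeu markers was 148 to 167, 888 to 1060 and 30200 to 33600. Among markers of other cells, the 5 monocyte and macrophage genes summed to 3020 to 3690 in GMPs, 1670 to 2200 in preNeu cells and 1130 to 1490 in matNeu cells, and the 5 eosinophil, basophil and mast cell genes to 1150 to 1400, 108 to 171 and 38.0 to 50.0. Most of the monocyte and macrophage sum was Ly6c2 (2960, 1870 and 937 TPM on average). Csf1r (204, 13.8 and 304 TPM) and Adgre1 (12.3, 11.4 and 83.8 TPM) were higher in matNeu than in preNeu cells. Cx3cr1 (25.8, 1.51 and 0.853 TPM) and Ms4a6c (200, 3.23 and 1.71 TPM) were not. Their means were highest in GMPs and low in both other cell types, whose libraries overlapped. The 4 T and NK cell genes summed to 457 to 610 in GMPs, 216 to 250 in preNeu cells and 1.93 to 4.32 in matNeu cells, in GMPs and preNeu cells nearly all of it Nkg7, the 4 platelet genes to at most 50.2 and the 4 erythroid genes to at most 9.43. Cd3e was listed at 0 in GMPs and Epx in matNeu cells. These sums differed between cell types as the annexin levels below did, and their part in the results was not tested. In bulk RNA, fewer cells of a type and less RNA per cell cannot be told apart.

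Anxa1 and Anxa2 held most of the annexin transcripts in preNeu and matNeu cells, and their order differed between these cell types. The 8 members summed to 1970 ± 144 TPM in GMPs, 8760 ± 315 TPM in preNeu cells and 8700 ± 1080 TPM in matNeu cells (SD, n = 3). Anxa1 and Anxa2 together made up 37.6% to 41.9% of this sum in the GMP libraries, 87.9% to 89.1% in preNeu and 93.7% to 94.6% in matNeu libraries. The ratio of Anxa1 to Anxa2 TPM was 1.24 to 1.46 in GMPs and 8.01 to 8.49 in preNeu cells, and fell to 0.558 to 0.770 in matNeu cells. By mean TPM over all 34896 genes, Anxa1 ranked 302 in GMPs, 12 in preNeu and 36 in matNeu cells, and Anxa2 ranked 462, 115 and 16.

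Changes were tested with limma on log2(TPM + 1) in 1 fit of all 9 libraries, with p-values adjusted by the Benjamini-Hochberg method over the 13061 genes at a threshold of 0.05. A log2 change is on the log2(TPM + 1) scale, which understates the change of low genes. In matNeu cells against GMPs, 3 members were higher and 5 lower, where 22.8% of all tested genes were higher and 54.1% lower. In preNeu cells against GMPs, 4 were higher, 3 lower and 1 not called, where 14.7% of all tested genes were higher and 44.3% lower. In matNeu against preNeu cells, 3 were higher, 4 lower and 1 not called, where the shares of all tested genes were 22.9% higher and 39.8% lower. The median log2 change of the 8 members was -1.18, 0.27 and -0.25 in these comparisons, and that of all tested genes -0.92, -0.52 and -0.32. The comparisons share libraries and are not independent of each other.

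TPM divides each library by its own total, and a few very abundant transcripts can lower all others. The 10 most abundant genes held 9.15% to 9.78% of a GMP library, 24.1% to 28.3% of a preNeu library and 12.7% to 15.9% of a matNeu library. Under upper quartile scaling the median change of all tested genes was 0.10, -0.04 and 0.14 in place of -0.92, -0.52 and -0.32, and the share of higher genes among those called was 51.7%, 48.2% and 55.3% in place of 29.6%, 25% and 36.5%. Median-of-ratios scaling gave medians of -0.20, -0.09 and -0.07 and shares of 45.2%, 45.1% and 47.2%. Where a call or direction of a member depends on this, the values under the other scalings are given below beside the change relative to the median of all tested genes.

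**Figure D1:**
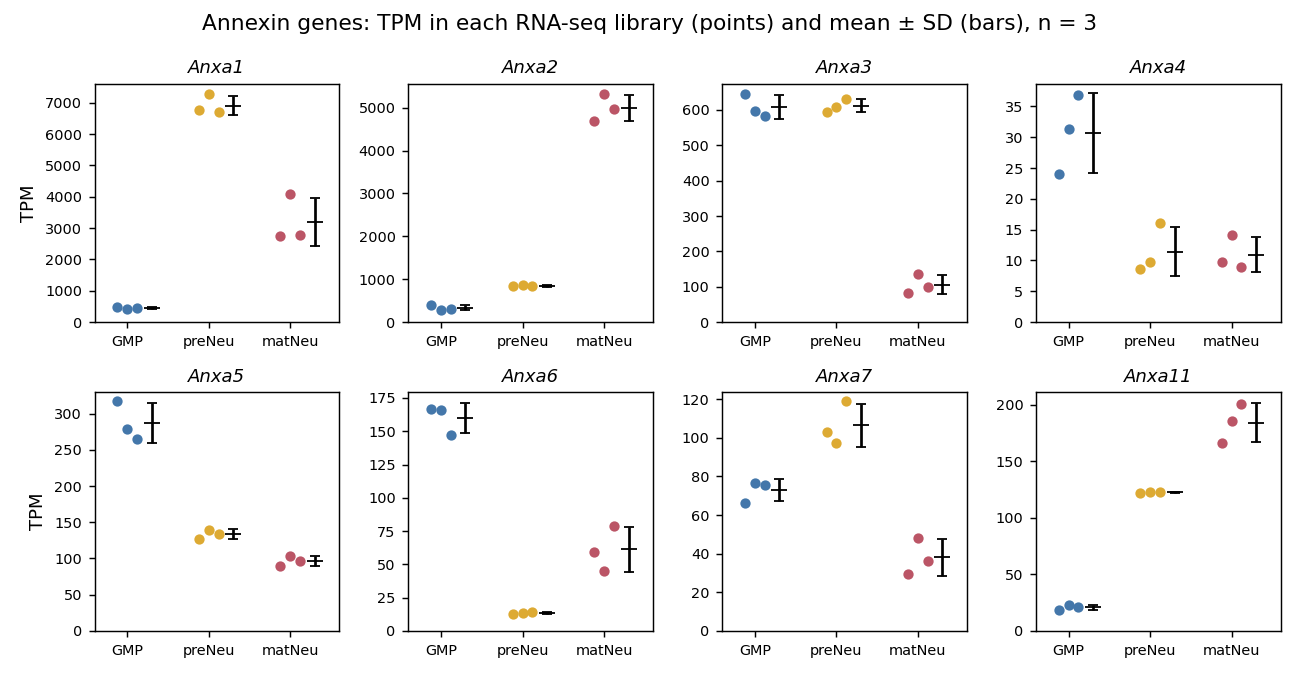
TPM (y axis, linear from 0, one scale per gene) of the 8 annexin genes in GMP, preNeu and matNeu cells. Each point is 1 RNA-seq library and the bar beside it the mean ± SD of 3 libraries. Anxa1 is highest in the 3 preNeu libraries, Anxa2 and Anxa11 in the 3 matNeu libraries, and Anxa6 is lowest in the 3 preNeu libraries.

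Anxa1, the annexin with the best known anti-inflammatory role, peaked in preNeu cells. It stood at 496, 418 and 454 TPM in the GMP libraries, at 6760, 7270 and 6710 TPM in the preNeu libraries and at 2750, 4090 and 2780 TPM in the matNeu libraries. The ranges of the 3 cell types did not overlap. Against GMPs it was 15.2-fold higher in preNeu cells (log2 change 3.92, SE 0.15, limma adjusted p = 1.47e-08) and 7.03-fold higher in matNeu cells (2.79, SE 0.15, adjusted p = 2.68e-08). From preNeu to matNeu cells it fell 2.16-fold (log2 change -1.13, SE 0.15, adjusted p = 5.93e-05), and the highest matNeu library, at 4090 TPM, stood apart from the other two.

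Anxa2, which joins the actin cortex to membranes and holds S100A10 in its heterotetramer, rose at each step and most at the last. Its TPM was 400, 287 and 314 in GMPs, 834, 857 and 837 in preNeu and 4700, 5310 and 4980 in matNeu cells. No library of one cell type overlapped those of another. It rose 2.53-fold from GMPs to preNeu cells (log2 change 1.35, SE 0.12, limma adjusted p = 8.14e-06) and 5.93-fold from preNeu to matNeu cells (2.56, SE 0.12, adjusted p = 2.89e-08), and the matNeu mean was 15.0-fold the GMP mean.

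Anxa11, whose protein tethers RNA granules to lysosomes, rose to preNeu cells and again to matNeu cells. It was at 18.6, 22.9 and 21 TPM in GMPs, at 122, 123 and 123 TPM in preNeu and at 166, 186 and 201 TPM in matNeu cells. The cell types did not overlap, and Anxa11 moved from the lowest of the 8 members in GMPs to the third highest in matNeu cells. Its log2 change was 2.51 (SE 0.13, limma adjusted p = 1.66e-07) in preNeu cells against GMPs, 3.09 (SE 0.13, adjusted p = 4.79e-09) in matNeu cells against GMPs and 0.58 (SE 0.13, adjusted p = 0.00248) in matNeu against preNeu cells. These 3 genes, Anxa1, Anxa2 and Anxa11, kept their directions and calls under both other scalings.

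Anxa3 was the most abundant annexin of GMPs and held that level in preNeu cells before it fell. GMP libraries had 646, 596 and 582 TPM, preNeu libraries 595, 609 and 631 TPM, and matNeu libraries 81.9, 135 and 99.8 TPM. The GMP and preNeu values overlapped, and all matNeu values lay below them. Between GMPs and preNeu cells the log2 change was 0.01 (95% interval -0.34 to 0.36, limma adjusted p = 0.969), and relative to the median of all genes 0.53. Under upper quartile and median-of-ratios scaling this change was 0.59 (adjusted p = 0.0161) and 0.52 (adjusted p = 0.0305). In matNeu cells Anxa3 was 5.76-fold lower than in GMPs (log2 change -2.54, SE 0.16, adjusted p = 8.80e-08) and 5.79-fold lower than in preNeu cells (-2.55, SE 0.16, adjusted p = 1.83e-07).

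Anxa6, the largest annexin by its number of core repeats, which organizes membrane cholesterol and actin, had the reverse of the Anxa1 profile. Its TPM was 167, 166 and 147 in GMPs, 12.7, 13.3 and 14.4 in preNeu and 59.5, 45.0 and 79.1 in matNeu cells. The 3 ranges were apart. The fall to preNeu cells was 11.9-fold (log2 change -3.48, SE 0.19, limma adjusted p = 2.56e-07), which was at the 1.76 percentile of all tested genes, and it was followed by a 4.54-fold rise to matNeu cells (2.07, SE 0.19, adjusted p = 3.85e-06). Both steps kept their direction and call under the other scalings. The net change from GMPs to matNeu cells was -1.41 (SE 0.19, limma adjusted p = 4.74e-05), or -0.48 relative to the median of all genes. It was -0.16 (adjusted p = 0.424) under upper quartile and -0.53 (adjusted p = 0.015) under median-of-ratios scaling.

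Anxa5, the phosphatidylserine-binding annexin, fell from GMPs to preNeu cells and stayed below GMPs in matNeu cells. GMP libraries had 318, 279 and 265 TPM, preNeu libraries 127, 140 and 134 TPM, and matNeu libraries 89.8, 104 and 95.9 TPM. The 3 cell types did not overlap. Against GMPs the log2 change was -1.09 (SE 0.12, limma adjusted p = 2.15e-05) in preNeu and -1.56 (SE 0.12, adjusted p = 3.52e-07) in matNeu cells. The size of the matNeu change depended on the scaling, with -0.64 relative to the median of all genes, -0.31 (adjusted p = 0.0370) under upper quartile and -0.68 (adjusted p = 0.000400) under median-of-ratios scaling. The last step, -0.47 (SE 0.12, adjusted p = 0.00473) or -0.15 relative to the median of all genes, turned to 0.21 (adjusted p = 0.153) under upper quartile scaling and was -0.10 (adjusted p = 0.489) under median-of-ratios scaling.

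Anxa7, first known for fusing secretory granules, was highest in preNeu cells. It had 66.4, 76.8 and 75.8 TPM in GMPs, 103, 97.4 and 119 TPM in preNeu and 29.5, 48.3 and 36.4 TPM in matNeu cells, again without overlap between cell types. The rise to preNeu cells was small (log2 change 0.53, SE 0.18, limma adjusted p = 0.0255) and did not pass the threshold without replicate 1 of the GMPs (0.47, adjusted p = 0.0812) or without replicate 1 (0.55, adjusted p = 0.0512) or 3 (0.45, adjusted p = 0.0860) of the preNeu cells. Relative to the median of all genes, the change in preNeu cells against GMPs was 1.05. The fall from preNeu to matNeu cells was 2.79-fold (log2 change -1.48, SE 0.18, adjusted p = 3.17e-05). Against GMPs the matNeu change of -0.95 (SE 0.18, adjusted p = 0.000584) was -0.02 relative to the median of all genes, and it was 0.29 (adjusted p = 0.174) under upper quartile and -0.08 (adjusted p = 0.720) under median-of-ratios scaling.

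Anxa4, an annexin of epithelial and secretory membranes, was the lowest member in preNeu and matNeu cells. GMPs had 24, 31.3 and 36.9 TPM, preNeu cells 8.55, 9.79 and 16.0 TPM and matNeu cells 9.78, 14.2 and 8.87 TPM. All GMP libraries were above the others, and preNeu and matNeu libraries overlapped (log2 change -0.04, 95% interval -0.65 to 0.58, limma adjusted p = 0.923). That step was 0.28 relative to the median of all genes, and it was 0.60 (adjusted p = 0.0771) under upper quartile and 0.31 (adjusted p = 0.353) under median-of-ratios scaling, so that its sign was not settled. The change against GMPs was -1.38 (SE 0.28, adjusted p = 0.00155) in preNeu and -1.41 (SE 0.28, adjusted p = 0.000760) in matNeu cells. The matNeu value was -0.49 relative to the median of all genes, and -0.22 (adjusted p = 0.475) and -0.57 (adjusted p = 0.0808) under upper quartile and median-of-ratios scaling.

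**Figure D2:**
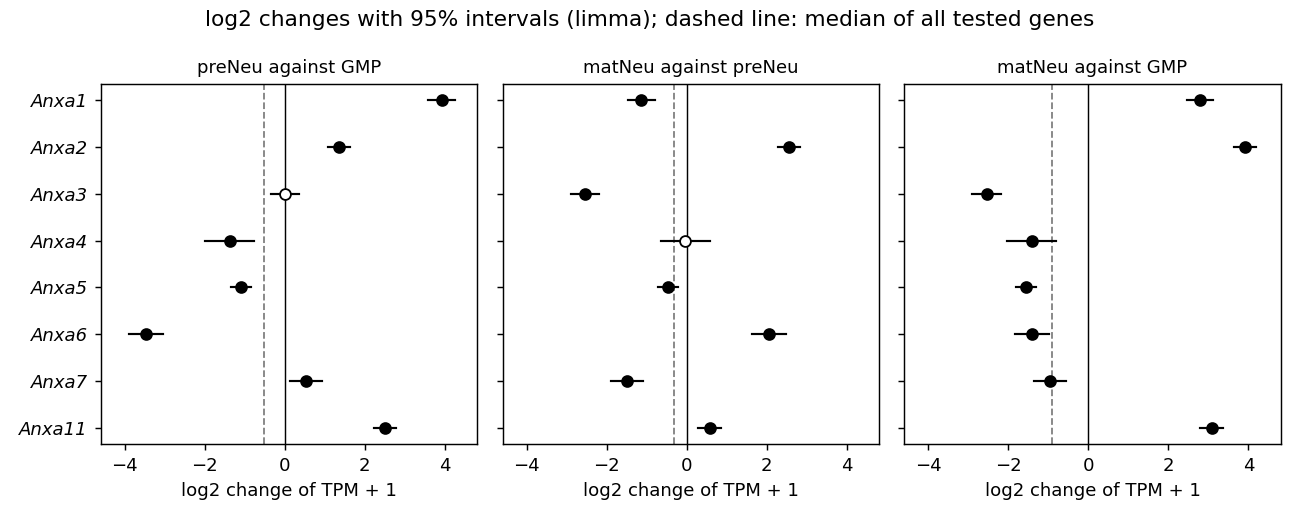
The log2 change of TPM + 1 (x axis) of each annexin gene in 3 comparisons of cell types. Points are limma estimates with 95% intervals, filled where the adjusted p was under 0.05, and the dashed line is the median of all 13061 tested genes. Anxa1 and Anxa6 lie far out on opposite sides in preNeu cells against GMPs (3.92 and -3.48), and both change sign from preNeu to matNeu cells (-1.13 and 2.07).

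Ordered by mean TPM, GMPs expressed Anxa3, Anxa1, Anxa2, Anxa5, Anxa6, Anxa7, Anxa4 and Anxa11, preNeu cells Anxa1, Anxa2, Anxa3, Anxa5, Anxa11, Anxa7, Anxa6 and Anxa4, and matNeu cells Anxa2, Anxa1, Anxa11, Anxa3, Anxa5, Anxa6, Anxa7 and Anxa4. Neighbours in this order whose libraries overlapped were Anxa2 and Anxa5 in GMPs, Anxa6 and Anxa4 in preNeu cells, and in matNeu cells Anxa3 and Anxa5 as well as Anxa6 and Anxa7. Of the other annexin genes in the table, Anxa8 and Anxa10 were listed at 0 in every library. Anxa9 was at 21.5 ± 1.82 TPM in GMPs, 2.24 ± 1.10 TPM in preNeu and 3.87 ± 0.737 TPM in matNeu cells (SD, n = 3). On the opposite strand, Anxa1 overlaps 1500015L24Rik, Anxa2 overlaps Gm16144, Anxa4 overlaps Gm44036 and Anxa11 overlaps Anxa11os in the annotation, and whether the quantification used strand is not given in the sources used here.

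For each member, the 2 genes with the most similar profile were found among all tested genes by the Euclidean distance of log2(TPM + 1) over the 9 libraries, each gene centred on its own mean. Closest to Anxa1 were Gm12314 (distance 0.556), which was listed at 0 in GMPs, and the lectin receptor gene Clec4a2 (0.741), with means of 30.9, 636 and 315 TPM in GMPs, preNeu and matNeu cells. For Anxa2 they were Armc7 (0.522) and Icosl (0.535), a costimulatory ligand gene with means of 4.22, 11.1 and 60.1 TPM. Anxa3 was closest to the centrosome gene Nde1 (0.298) and to the tetraspanin gene Tspan32 (0.325), and Anxa11 to Slc22a15 (0.311) and to the actin-binding calponin gene Cnn2 (0.402), with means of 173, 1140 and 1760 TPM. Anxa6 had the most distant neighbours, Pik3ip1 (0.887) and Abhd4 (0.988). The nearest genes to Anxa4 were Hars2 (0.492) and Tmem14a (0.516), to Anxa5 Ctr9 (0.332) and Ghitm (0.343), and to Anxa7 Tank (0.396) and Asnsd1 (0.426). Tmem14a was low, with means of 2.68, 0.374 and 0.0861 TPM in GMPs, preNeu and matNeu cells. At such levels the log2(TPM + 1) scale understates changes.

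The EF-hand and scaffold partners of annexins moved in both directions. Of 8 genes, 4 were higher, 2 lower and 2 not called in matNeu cells against GMPs, with a median log2 change of 0.51 beside -0.92 for all tested genes. In preNeu cells against GMPs 3 were higher, 3 lower and 2 not called (median -0.13), and in matNeu against preNeu cells 3 were higher, 1 lower and 4 not called (median 0.54). For these and the lists that follow, the shares of all tested genes were 22.8% higher and 54.1% lower, 14.7% and 44.3%, and 22.9% and 39.8% in the 3 comparisons, with medians of -0.92, -0.52 and -0.32. With both other scalings, 5 were higher and 1 lower in matNeu cells against GMPs, 4 higher in preNeu cells against GMPs and 4 higher in matNeu against preNeu cells. S100a10, which encodes the partner of annexin A2, was at 47, 60.5 and 58.2 TPM in GMPs, 2.14, 1.35 and 1.2 TPM in preNeu cells and 1.82, 0 and 0.798 TPM in matNeu cells. It thus fell (log2 change -4.46, SE 0.36, limma adjusted p = 3.59e-06, in preNeu cells against GMPs) while Anxa2 rose, and its GMP libraries did not overlap the others. S100a11, a partner of annexin A1, had 59.5, 99.5 and 72.1 TPM in GMPs, 250, 183 and 206 TPM in preNeu and 1900, 1170 and 977 TPM in matNeu cells. It was higher at each step, by 1.47 (SE 0.25, adjusted p = 0.000536) and then by 2.61 (SE 0.25, adjusted p = 5.41e-06) on the log2 scale.

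S100a6, whose product binds annexins A2, A6 and A11, was at 4.50 ± 1.73 TPM in GMPs, 30.3 ± 5.79 TPM in preNeu and 483 ± 153 TPM in matNeu cells (SD, n = 3). The log2 change from GMPs to matNeu cells was 6.46 (SE 0.28, limma adjusted p = 5.48e-09), with no overlap between cell types. Sri, which encodes the annexin A7 ligand sorcin, was at 210 ± 23.8, 599 ± 27.5 and 473 ± 70.6 TPM, and was higher in preNeu cells (1.51, SE 0.13, adjusted p = 5.99e-06) and in matNeu cells (1.16, SE 0.13, adjusted p = 1.14e-05) than in GMPs. The annexin A11 ligand gene Pdcd6 was at 239 ± 42.2, 179 ± 15.1 and 214 ± 8.72 TPM, and its relative Pef1 rose to 177 ± 20.5 TPM in matNeu cells from 75.2 ± 5.62 TPM in preNeu cells (1.22, SE 0.13, adjusted p = 9.14e-06). Ahnak, the giant scaffold of the annexin A2 and S100A10 complex, was low, at 3.26 ± 0.75 TPM in GMPs and 1.21 ± 1.26 TPM in matNeu cells, and S100a4 had at most 5.92 TPM in any library.

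Among the genes of the annexin A1 receptors and of lipid mediator synthesis, Fpr1, Fpr2, Alox5 and Alox5ap rose at each step, and Pla2g4a did not. Of the 6 genes, 5 were tested, since Fpr3 did not pass the filter, and 4 of them were higher and 1 lower in matNeu cells against GMPs (median log2 change 4.99, beside -0.92 for all tested genes), 4 higher and 1 not called in preNeu cells against GMPs (median 3.99), and 4 higher and 1 lower in matNeu against preNeu cells (median 1.70). Fpr1, a formyl peptide receptor gene, was at 0.233, 0.113 and 0.308 TPM in GMPs, 38.1, 41.8 and 36.2 TPM in preNeu and 1840, 2530 and 1770 TPM in matNeu cells. Fpr2, the receptor gene most tied to annexin A1 signalling, was listed at 0 in the 3 GMP libraries and had 93.5, 93.4 and 73.4 TPM in preNeu and 274, 326 and 252 TPM in matNeu cells. Both receptor genes had their highest values in matNeu cells, whereas Anxa1 had them in preNeu cells. Alox5, for 5-lipoxygenase, rose from 23.4 ± 4.30 to 385 ± 34.9 and 771 ± 68.7 TPM, and Alox5ap, for its activating protein, from 271 ± 28.3 to 677 ± 127 and 2550 ± 182 TPM. Pla2g4a, for the cytosolic phospholipase A2 that annexins can inhibit, was at 49.1 ± 4.17, 44.7 ± 5.11 and 18.2 ± 5.13 TPM. It fell from preNeu to matNeu cells (log2 change -1.28, SE 0.20, limma adjusted p = 0.000232). Its change from GMPs to matNeu cells of -1.41 (adjusted p = 6.91e-05) was -0.19 (adjusted p = 0.403) under upper quartile scaling. Under median-of-ratios scaling that change was -0.56 (adjusted p = 0.0304).

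Among 8 membrane repair genes, Dysf and Myof did not pass the filter, and of the other 6, 2 were higher, 2 lower and 2 not called in matNeu cells against GMPs (median log2 change 0.08, beside -0.92 for all tested genes). The counts were 2 higher, 1 lower and 3 not called in preNeu cells against GMPs (median 0.26) and 1 higher, 2 lower and 3 not called in matNeu against preNeu cells (median -0.09). Under upper quartile or median-of-ratios scaling, 5 were higher and 1 lower in matNeu cells against GMPs, and 4 higher and 1 lower in preNeu cells against GMPs. For matNeu against preNeu cells, upper quartile scaling gave 3 higher and 0 lower, and median-of-ratios scaling 2 higher and 1 lower, so that the balance of this list depended on the scaling. The calpain genes exchanged places, with Capn1 at 5.18 ± 0.426, 24.5 ± 0.95 and 36.0 ± 10.2 TPM and Capn2 at 11.8 ± 2.57, 1.39 ± 1.69 and 1.19 ± 0.640 TPM in GMPs, preNeu and matNeu cells (SD, n = 3). In matNeu cells against GMPs Capn1 rose (log2 change 2.55, SE 0.21, limma adjusted p = 8.78e-07) and Capn2 fell (-2.58, SE 0.45, adjusted p = 0.000308).

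The 7 genes of phosphatidylserine exposure, the lipid signal that annexin A5 reads, split into 3 higher and 4 lower in matNeu cells against GMPs (median log2 change -0.76, beside -0.92 for all tested genes), 4 higher, 2 lower and 1 not called in preNeu cells against GMPs (median 0.61), and 1 higher, 4 lower and 2 not called in matNeu against preNeu cells (median -1.13). Plscr1, a scramblase gene known for interferon response, was at 30.5 ± 5.75, 210 ± 11.6 and 48.9 ± 12.0 TPM in GMPs, preNeu and matNeu cells, a peak in the same cell type as Anxa1. Plscr3, a mitochondrial scramblase gene, was at 177, 164 and 163 TPM in GMPs, 82.8, 83.9 and 92.9 TPM in preNeu and 2.73, 3.58 and 2.70 TPM in matNeu cells. It fell 28.8-fold from preNeu to matNeu cells (log2 change -4.46, SE 0.15, limma adjusted p = 2.59e-09). The flippase gene Atp11a rose to 63.0 ± 15.4 TPM in matNeu cells, and the calcium-dependent scramblase gene Ano6 fell to 27.7 ± 2.62 TPM there from 62.4 ± 9.99 TPM in preNeu cells. In matNeu cells against GMPs, 4 of the 7 were higher and 1 lower under upper quartile scaling and 3 higher and 1 lower under median-of-ratios scaling. In preNeu cells against GMPs 5 were higher under both, with 0 and 1 lower, and in matNeu against preNeu cells 2 and 1 were higher and 4 lower.

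**Figure D3:**
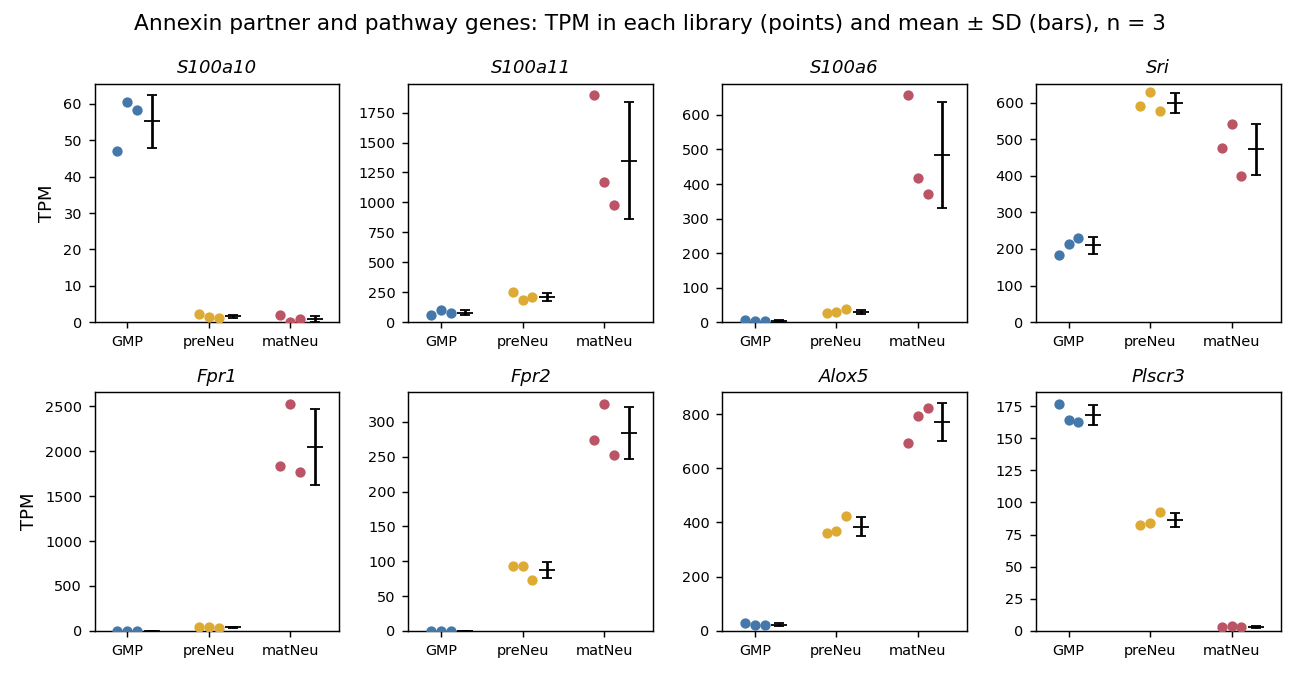
TPM (y axis, linear from 0, one scale per gene) of 8 partner and pathway genes of the annexins in GMP, preNeu and matNeu cells, with 1 point per library and the mean ± SD of 3 libraries beside it. S100a10 is at 47 to 60.5 TPM in the GMP libraries and at most 2.14 TPM in all others, while S100a11, S100a6, Fpr1 and Fpr2 are highest in matNeu cells.

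CHD4 occupied 4 of the 8 annexin loci in WT GMPs. Within 10 kb of the gene bodies there were 17 peaks, of which 4 were at Anxa1, 2 at Anxa2, 6 at Anxa3 and 5 at Anxa6, and none at Anxa4, Anxa5, Anxa7 or Anxa11. Of all 11865 tested protein-coding genes, 43.3% had such a peak. The loci are chr19:20373428-20390944 (minus strand) for Anxa1, chr9:69453620-69491795 (plus) for Anxa2, chr5:96793339-96845966 (plus) for Anxa3 and chr11:54979108-55033445 (minus) for Anxa6, in GENCODE M21 on GRCm38. Fold enrichments ran from 3.65 to 21.1 (median 8.69), beside a median of 7.72 over the 35790 peaks of the list, and there was 1 library, so that no value here has a replicate. By summit, 7 of the 17 lay in a promoter, which reached 2 kb above and 500 bp below the start of a coding transcript.

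At Anxa1 the main peak, chr19:20389203-20391015, covered the gene start with a fold enrichment of 21.1 and had its summit 74 bp from the nearest coding transcript start. The 3 weaker ones lay upstream, 297 bp (4.85), 2909 bp (5.67) and 6381 bp (9.05) from the gene start. Anxa3 had 3 peaks of similar strength around its start, at 800 bp upstream (20.7), at 78 bp downstream in the 5′ UTR (18.6) and at 1103 bp downstream in the first intron (20.2), with weaker ones 1551 bp upstream (5.89) and 3740 bp (8.69) and 4441 bp (3.65) downstream. Anxa2 had only promoter peaks, with summits 11 bp (5.27) and 483 bp (9.93) downstream of its start. All 5 Anxa6 peaks were intronic, between 10206 and 44516 bp downstream of the start, with fold enrichments of 5.66 to 10.9, and none was at its promoter.

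In Gfi1-/- GMPs, CHD4 peaks were left at 2 of these genes. Of the 17 WT peaks, 3 overlapped a Gfi1-/- peak, or 17.6% (95% Wilson interval 6.19% to 41.0%, counting error only), beside 18.5% of all 35790 WT peaks, a share near this background. The Gfi1-/- list is shorter, with 7316 peaks, and 14.3% of the 11865 tested protein-coding genes had one of its peaks within 10 kb. The peak that remained at Anxa1, chr19:20390382-20390912, had a fold enrichment of 11.9 and lay inside the WT peak of 21.1. At Anxa3, those that remained were narrower and weaker, chr5:96792449-96792646 with 5.07 in place of 20.7 and chr5:96794300-96794573 with 6.99 in place of 20.2. The third Anxa3 peak, over the gene start, had no counterpart although its WT enrichment was 18.6.

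The kept peaks were among the strongest of the family. Of 4 WT peaks above 18-fold, 3 were kept, and none of the 13 below 12-fold was. The WT list was split by fold enrichment into 10 bins of equal size, and the 4 strongest stood in bin 9, where 49.9% of all peaks were kept. In the bins that held the other 13 the share was 0.643% to 8.63%. Both Anxa2 peaks and all 5 Anxa6 peaks were without a counterpart. Enrichment was read from 1 library per genotype, the depth of the libraries is unknown, and a difference between genotypes and a difference between libraries cannot be told apart.

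**Figure D4:**
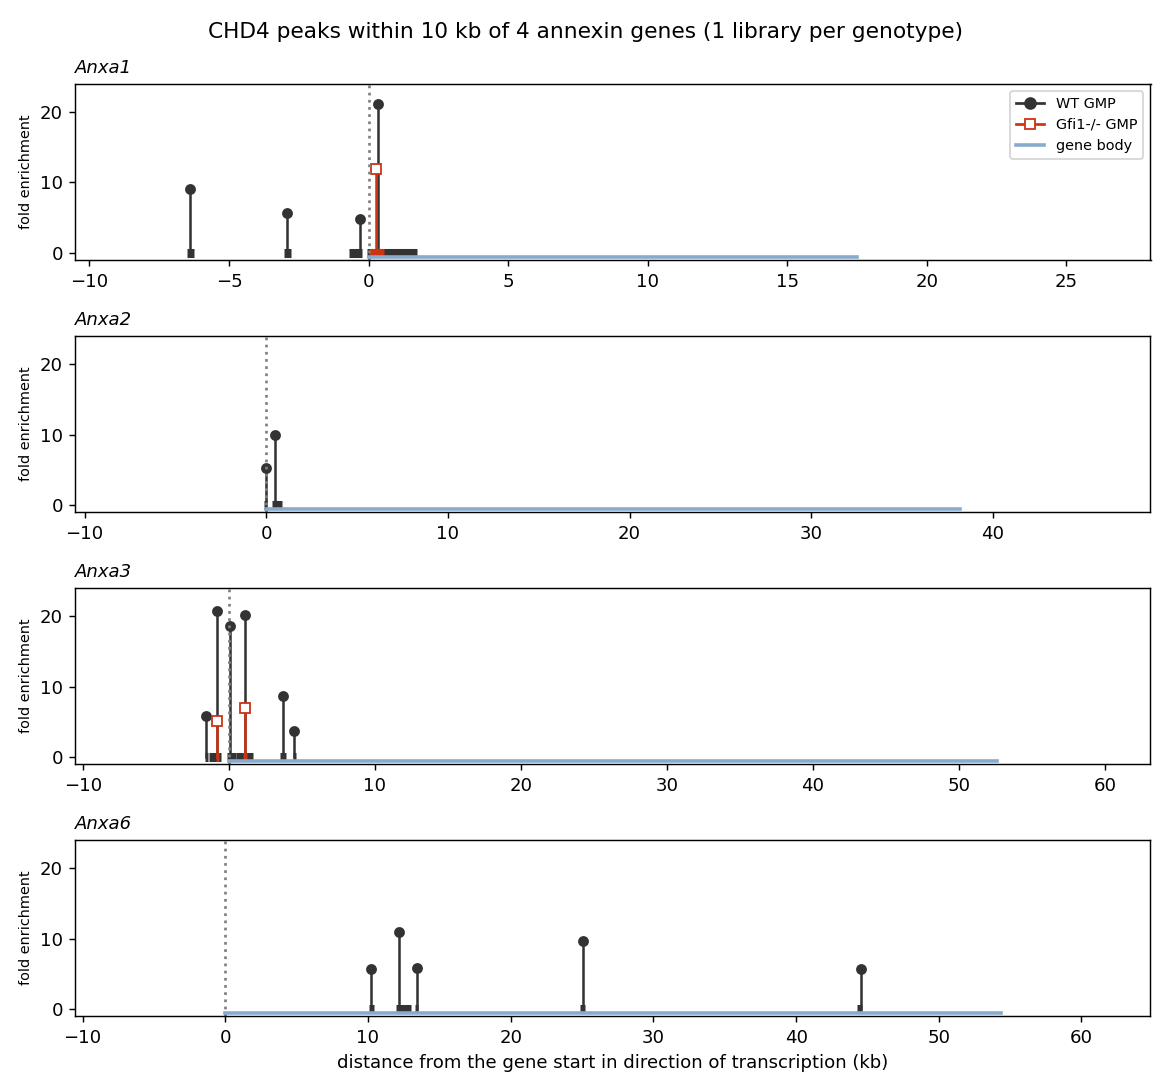
CHD4 peaks within 10 kb of Anxa1, Anxa2, Anxa3 and Anxa6. The x axis is the distance of the summit from the gene start in kb, in the direction of transcription, the y axis the fold enrichment, black circles WT GMPs, open red squares Gfi1-/- GMPs, thick marks at the base the peak widths and the blue line the gene body. At Anxa1 and Anxa3 the peaks gather at the gene start, 3 of them have a Gfi1-/- peak at the same place, and at Anxa6 they lie 10206 to 44516 bp inside the gene.

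The sequence cores were sparse in the 200-base windows around the 17 summits. The GFI1 core was found in 1 window, or 5.88%, beside 12.0% of the windows of all WT peaks, and this was the weak Anxa1 peak 297 bp upstream, shown above, with 2 copies beside a run of GAA repeats. SPI1 cores were in 2 windows (11.8%, beside 11.7% of all windows), in the kept Anxa3 intron peak and in an Anxa6 intron peak. C/EBP cores were in 3 windows (17.6% beside 17.3%), among them the kept Anxa3 peak 800 bp upstream. RUNX cores were in 2 windows (11.8% beside 23.9%), the main Anxa1 peak and the Anxa3 peak 1551 bp upstream, and the IRF core was in 1 Anxa6 window (5.88% beside 5.16%). These are matches of letters only.

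H3K4me2 was found at every annexin locus in every cell type, and in the preNeu and matNeu lists Anxa1, Anxa2 and Anxa11 had the greatest covered shares of the 8. A peak lay over the gene start of 7 members in GMPs, 8 in preNeu and 8 in matNeu cells, beside 74.2%, 86.5% and 84.8% of the 11865 tested protein-coding genes. The exception was Anxa1 in GMPs, where the peak chr19:20389114-20390311 ended within the gene, short of its start. Peaks covered 27.2 kb of the 476.0 kb of gene bodies with flanks in GMPs, 87.7 kb in preNeu and 80.8 kb in matNeu cells. As shares these are 5.71%, 18.4% and 17%, and the median over members was 5.49%, 15.4% and 10.8% beside 7.29%, 12.8% and 10.1% over all tested protein-coding genes.

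The 3 lists differ as a whole. They hold 37643, 49578 and 44094 peaks with a median fold enrichment of 2.89, 4.55 and 3.78 in GMPs, preNeu and matNeu cells. Each list is 1 library, and a difference between cell types and a difference between lists cannot be told apart. With the best 37643 peaks of each, the covered length at the annexin genes was 27.2, 81.3 and 79.3 kb. Peaks over the gene starts had fold enrichments of 3.10 to 4.39 (GMPs), 9.26 to 15.0 (preNeu) and 6.03 to 13.6 (matNeu).

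At Anxa1 the covered share was 3.19% in GMPs, 40.7% in preNeu and 30.8% in matNeu cells. A single peak of 12716 bp, chr19:20379990-20392705, with a fold enrichment of 11.6, spanned the 5′ part of the gene in preNeu cells, and one of 10204 bp with 9.97 did so in matNeu cells. At Anxa11 the share was 4.70%, 38.0% and 42.9%, and the peak over the start was 1755, 18337 and 27403 bp wide. Anxa2 followed with 7.38%, 18.7% and 26.7%, where the promoter peak was 3718 bp wide in GMPs, 4806 bp in preNeu and 14271 bp in matNeu cells. With the same number of peaks in each list the shares were 3.19%, 39.1% and 29.1% at Anxa1, 4.70%, 38.0% and 42.9% at Anxa11 and 7.38%, 14.8% and 25.9% at Anxa2. The preNeu share of Anxa2 was then below that of Anxa7, at 17.5%. With either number of peaks, coverage and mean TPM were highest in the same cell type at Anxa1, Anxa2, Anxa3, Anxa7 and Anxa11. The Anxa3 TPM of GMPs and preNeu cells overlapped. With equal numbers of peaks, Anxa3 coverage was nearly the same in preNeu (6.99%) and matNeu cells (6.98%). At Anxa4, Anxa5 and Anxa6 coverage was greatest in preNeu cells and mean TPM in GMPs. The preNeu list, the longest, gave the greatest coverage at every member but Anxa2 and Anxa11. How often the 2 measures go together over all tested genes was not counted, and a link between them was not tested.

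The other members had 8.66% to 17.5% covered in preNeu and 5.54% to 11.3% in matNeu cells. Anxa3 had 4.66%, 10.9% and 7.53% covered, and its start was marked in matNeu cells with a peak of 5066 bp and a fold enrichment of 8.81 although its TPM had fallen there. Anxa6 had 7.27%, 13.4% and 10.3%, with most coverage in preNeu cells, in which its TPM was lowest. Of the 9951 bp covered in preNeu and 7667 bp in matNeu cells, 4554 and 2342 bp were 1 peak beyond the end of Anxa6. The coding gene start nearest to that peak was that of Tnip1. Anxa4 had 5.31%, 9.44% and 5.54%. Of the 4075, 7245 and 4250 bp covered there, 2156, 3801 and 1985 bp were a peak beyond the gene end, near the start of Gmcl1. The peak over the Anxa4 start had the highest fold enrichment among the members in each cell type (4.39, 15.0 and 13.6). By TPM, Anxa4 was the lowest of the 8 in preNeu and matNeu cells. Anxa5 had 5.67%, 8.66% and 7.51%, and Anxa7 6.98%, 17.5% and 11.3%, with a peak of 2475, 4751 and 3014 bp over its start. The Anxa7 shares include a peak of 659, 1501 and 1052 bp beyond the gene end, near the start of Cfap70.

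**Figure D5:**
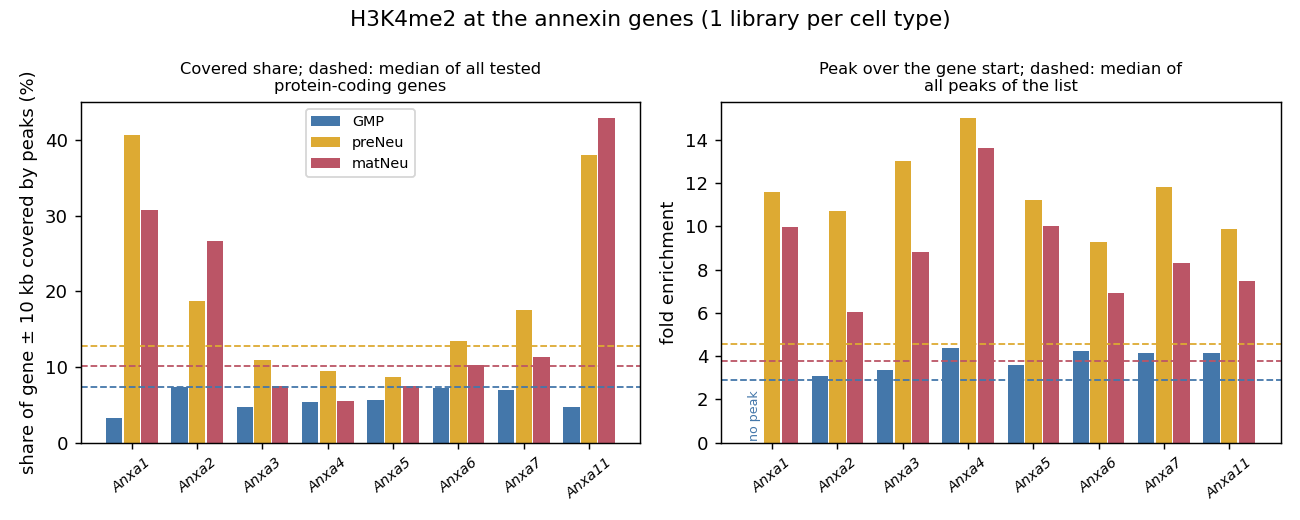
H3K4me2 at the annexin genes in GMP, preNeu and matNeu cells, 1 library each. Left, the share (%) of each gene with 10 kb on either side that peaks cover, with the median of all tested protein-coding genes as a dashed line, and right, the fold enrichment of the peak over the gene start, with the median of all peaks of each list as a dashed line. Anxa1 and Anxa11 reach 30.8% to 42.9% in preNeu and matNeu cells, and Anxa4 has the highest bar of the right panel in each cell type.

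Of the 17 CHD4 peaks of WT GMPs at annexin genes, 7 overlapped an H3K4me2 peak of GMPs, 10 one of preNeu and 9 one of matNeu cells. Over all 35790 WT CHD4 peaks the shares were 37.8%, 59.5% and 52.5%. At Anxa2, both CHD4 peaks carried the mark in every cell type. Of the 6 at Anxa3, 3 did so in GMPs and 4 in preNeu and matNeu cells. At Anxa6, 1 of 5 did in GMPs and preNeu cells and none in matNeu cells. Of the 4 at Anxa1, 1 overlapped the mark in GMPs and 3 in preNeu and matNeu cells.

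The ATAC-seq lists titled preNeu and matNeu were identical in all 16307 peaks and were read as 1 list of open chromatin. It held 11 peaks within 10 kb of 7 members, and none at Anxa7. Peaks lay at or within 500 bp of the starts of Anxa1 (fold enrichment 3.0), Anxa2 (5.17), Anxa5 (4.66), Anxa6 (3.30) and Anxa11 (3.96), and 3 more stood in the introns of Anxa11, 13418 to 19854 bp from its start and inside its wide H3K4me2 domain. The median of the list was 3.58. The Anxa3 intron peak with the SPI1 core overlapped an ATAC peak of 2.78, and the Anxa4 peak (4.44) was 133 bp from the start of the neighbouring gene Gmcl1.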

How the data were processed

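The 8 annexin genes, the partner lists, the marker lists and the sequence cores were chosen with earlier results of these data known. The authors deposited 1 table of TPM per gene and library, made per the labels with kallisto 0.44.0 among other tools, while their methods text describes alignment with Tophat and counting with HTSeq, so that the tool behind TPM is not settled. The depth is unknown, and no count test was used. The authors also deposited peak lists (mm10, BWA 0.7.17, MACS2 2.1.0 per the labels) with a linear fold enrichment ratio and a −log10 q-value per peak, called on 1 library each, and these served to describe peaks within a list. Lists for GFI1 and H3K4me3 run past the ends of GRCm38 chromosomes (3105 and 2179 peaks) and were not analysed here. No column of values was left unused (0 columns).

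Libraries were grouped by title. The tests were those of limma 3.58.1 (R 4.3.3), applied to log2(TPM + 1) after a filter of at least 1 TPM in at least 3 libraries, in 1 fit of the 9 libraries that held no term other than cell type, with a variance trend and two-sided p-values adjusted by Benjamini-Hochberg at 0.05. The fit was tested on simulated data. An exact permutation test of 3 against 3 libraries cannot give a p-value under 0.1. Libraries of one cell type correlated at 0.960 to 0.971 (Pearson r across genes). Python 3.11.15, numpy 2.4.6, pandas 2.3.3, scipy 1.17.1, pysam 0.24.0 and matplotlib 3.10.9 were used for peaks, sequences and plots. Genes were those of GENCODE M21, peaks were assigned to a gene within 10 kb of its body, an overlap was at least 1 bp, and a gene start is the 5′ end of the gene. Sequences were read from the RefSeq copy of GRCm38. All members were described in every result, other annexin genes by level, and partner genes by list counts with values for those named. For likeness the 2 nearest genes of each member were named.

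Alternatives were another pseudocount (0.1), no filter or a filter of 5 TPM, upper quartile and median-of-ratios scaling, the compared cell types alone, a replicate block, no variance trend, a minimum log2 change of 1 and each library left out. For peaks they were a −log10 q of at least 5, windows of 5 and 20 kb, summits in place of peaks, an overlap of 50%, summits within 200 bp, equal numbers of peaks, and a peak within 1 kb of the gene start.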

Additional observations from a re-analysis of the deposited data

How the results depend on the processing

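The alternatives left the directions and calls of the annexin genes as reported except where scaling, a minimum change or 1 library set them. Under upper quartile scaling 5 of the 8 members were called in matNeu cells against GMPs, and 2 were lower, while 3 were lower under median-of-ratios scaling. The sign of 2 called changes turned, both under upper quartile scaling, that of Anxa7 in matNeu cells against GMPs (0.29) and that of Anxa5 in matNeu against preNeu cells (0.21). The signs of 2 changes that were not called turned as well. That of Anxa4 in matNeu against preNeu cells (-0.04) was 0.60 under upper quartile and 0.31 under median-of-ratios scaling and 0.03 to 0.21 without replicate 3 of preNeu or 1 or 3 of matNeu cells, and that of Anxa3 in preNeu cells against GMPs (0.01) was -0.02 and -0.01 without replicate 3 of GMPs or of preNeu cells. The cause was not tested. Leaving out single libraries ended only the call of Anxa7 in preNeu cells against GMPs, with log2 changes of 0.45, 0.47 and 0.55 in the 3 cases. Same-numbered libraries deviated with correlations of -0.04 to 0.12. With 3 libraries per cell type this cannot decide whether the numbers pair the samples. Adding the numbers as a replicate block called 8, 7 and 7 members in the 3 comparisons, as without it. A minimum log2 change of 1 left 7, 6 and 5 called. The CHD4 peak count was 16 to 20, and the share kept 17.6% to 25%, under all alternatives. H3K4me2 covered length in GMPs, preNeu and matNeu cells was 10.6, 73.4 and 76.7 kb with a −log10 q of at least 5, 25.5, 79.6 and 76.2 kb in windows of 5 kb, and 33.0, 104 and 91.8 kb in windows of 20 kb. With equal numbers of peaks it was 81.3 kb in preNeu and 79.3 kb in matNeu cells. At a −log10 q of at least 5, preNeu cells no longer had more coverage than matNeu cells, and 4 members had an H3K4me2 peak over the start in GMPs. Depth is unknown, and ChIP-seq had no replicates.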
